A study of Mus musculus with 5 samples.

Results

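The genes described here are the nuclear genes for the subunits of oxidative phosphorylation in mouse blood cells. They were chosen by symbol alone: names that begin with Nduf followed by a, b, c, s or v and a number, Sdha to Sdhd, and names that begin with Uqcr, with Cox and a number from 4 to 8, or with Atp5, without processed pseudogenes. This gave 86 members among 38166 features in the progenitor tables and the same 86 among 34315 features in the granulocyte tables. Sorted into complexes by the start of the symbol, with Ndufa4 and Ndufa4l2 counted in complex IV, 35 members are of complex I, 4 of complex II, 8 of complex III, 20 of complex IV and 18 of complex V. The remaining member, Cox4nb, encodes a subunit of a membrane protein complex of the endoplasmic reticulum and shares only the name. Complex V includes Atp5s and Atp5sl, and complex IV includes Cox7a2l, by name alone. Their products act on assembly or regulation and are not subunits in the strict sense.

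The study asked which genes respond when long non-coding RNAs of blood stem cells are depleted, and it measured polyadenylated RNA by sequencing in C57BL/6 mice. One set of libraries came from KSL cells, the c-Kit+ Sca-1+ lineage-negative bone marrow cells that hold stem and early progenitor cells. Sca-1+ cells of mice injected with 5-fluorouracil, a drug that kills dividing cells, were transduced with a knockdown retrovirus carrying GFP, cultured in stem cell factor (10 ng/ml) and thrombopoietin (100 ng/ml) over 2 days, and sorted as GFP+ KSL cells. The other set came from Gr1+ granulocytes of the bone marrow of animals aged 12 months. The 3 KSL groups are Control-KD, LncHSC-1-KD and LncHSC-2-KD, all with the same drug, virus and culture, and each is 1 library. The 2 granulocyte libraries are technical replicates of 1 biological replicate and count as 1 sample. No group therefore has a replicate, no test between groups was possible, and every difference below is a difference between libraries. No source used here ties the names LncHSC-1 and LncHSC-2 to features of the tables, and how far each knockdown went was not analysed.

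Oxidative phosphorylation passes electrons from NADH and succinate through complexes I to IV to oxygen and uses the resulting proton gradient to make ATP in complex V. Most subunits are encoded in the nucleus and a few in mitochondrial DNA, and complex II is wholly nuclear. Quiescent blood stem cells are known for a low use of this pathway and for turning to it when they divide, while mature granulocytes are known for few mitochondria and a reliance on glycolysis. The promoters of these genes are known for sites of the factors NRF1, GABP (also called NRF2) and YY1.

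Promoter sequences were taken from RefSeq for mouse build GRCm38.p6 and were found for 69 of the 86 members. The windows ran from 250 bases before to 50 bases after the start site, and both strands were searched. The following 80-base stretches end at the base before the start site and are written in the direction of transcription. Letters of the NRF1 search motif GCGCATGC and of the GABP search motif CCGGAAG, on either strand, are in capitals. Of the first 7 stretches, 6 were picked because they hold a match, so they do not stand for the members at large. Atp5k is the complex V gene with the second highest level in control KSL cells. Ndufa11 had one of the higher ratios after LncHSC-1 knockdown. Sdhb and Uqcrh stand for complexes II and III, Cox6b1 and Cox6b2 are paralogs with unlike levels, and Atp5g2 is a near-silent member. Ndufc2, Ndufb2 and Ndufa4, last, had some of the most extreme ratios and hold no match in the whole window.
Atp5k (chr5:108434400-108434479, minus strand): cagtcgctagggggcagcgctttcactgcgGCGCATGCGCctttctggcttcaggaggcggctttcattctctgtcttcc
Ndufa11 (chr17:56717682-56717761, plus strand): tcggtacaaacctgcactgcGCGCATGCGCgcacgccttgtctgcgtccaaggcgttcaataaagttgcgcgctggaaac
Sdhb (chr4:140961191-140961270, plus strand): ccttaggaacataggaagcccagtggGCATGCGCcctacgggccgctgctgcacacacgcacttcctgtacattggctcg
Uqcrh (chr4:116075071-116075150, minus strand): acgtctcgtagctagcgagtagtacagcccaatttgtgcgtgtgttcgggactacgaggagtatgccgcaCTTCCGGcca
Cox6b1 (chr7:30626115-30626194, minus strand): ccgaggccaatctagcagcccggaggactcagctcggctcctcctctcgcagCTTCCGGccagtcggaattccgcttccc
Cox6b2 (chr7:4753095-4753174, minus strand): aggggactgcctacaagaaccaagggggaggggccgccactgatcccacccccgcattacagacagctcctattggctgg
Atp5g2 (chr15:102671048-102671127, minus strand): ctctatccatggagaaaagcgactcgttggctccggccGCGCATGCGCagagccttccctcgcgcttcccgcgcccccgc
Ndufc2 (chr7:97399923-97400002, plus strand): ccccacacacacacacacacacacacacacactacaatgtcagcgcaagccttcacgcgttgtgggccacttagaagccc
Ndufb2 (chr6:39592485-39592564, plus strand): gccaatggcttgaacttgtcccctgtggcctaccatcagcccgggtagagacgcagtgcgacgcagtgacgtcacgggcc
Ndufa4 (chr6:11907451-11907530, minus strand): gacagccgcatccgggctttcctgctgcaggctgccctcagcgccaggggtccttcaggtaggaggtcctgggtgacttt
In Atp5k, Ndufa11 and Atp5g2 the motif overlaps its own reverse complement, so that 10 bases are in capitals. Atp5g2 carried this match although its level was under 1 FPKM (fragments per kilobase of transcript, scaled to library depth) in all 3 KSL libraries. No capitals appear in Cox6b2, Ndufc2, Ndufb2 and Ndufa4, which says only that these letters are not in these stretches.

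The NRF1 motif was found in 10 of the 69 member promoters (14.5%) against 3.05% of the promoters of all 27025 genes in the table. GABP letters were found in 16 members (23.2%) against 9.93% of all genes. The YY1 motif AAGATGGC was found in 11 members (15.9%) against 3.19%, and the TATA motif TATAAA in 7 members (10.1%) against 15.7%. By complex, AAGATGGC was found in 7 of 31 complex I genes and in 4 of 16 complex V genes, which include Atp5sl, counted there by name alone. It was found in 0 of 3, 0 of 5 and 0 of 14 genes of complexes II, III and IV that had a promoter. These numbers are too small to set the complexes apart. These shares describe sequence, and binding was not measured.

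Of 12 AAGATGGC matches, 9 lay on the coding strand at positions 23 to 39 after the start site, in 9 member genes. This is 13.0% of the members with a promoter, against 0.455% of all genes in that range, which was itself set by the members' own matches. The next 30-base stretches begin at position 15 after the start site and show 5 of these genes, with the motif in capitals.
Ndufa3 (chr7:3617387-3617416, plus strand): ccaagaacAAGATGGCcgggagtaagtaca
Ndufc1 (chr3:51408912-51408941, minus strand): tgcggaacAAGATGGCgccgtccgtagtgc
Ndufs6 (chr13:73328439-73328468, minus strand): ggggtcaagggtcaccggcAAGATGGCggc
Ndufs7 (chr10:80249463-80249492, plus strand): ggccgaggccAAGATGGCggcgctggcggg
Atp5j2 (chr5:145191498-145191527, minus strand): caggacttcAAGATGGCgtcactcggtgag
The motif contains ATG. In 9 of these 9 genes that ATG is the start codon of the protein in the GENCODE M21 annotation, as it is in 78 of the 123 genes (63.4%) that have the match in this range in the whole table. The 9 genes are Ndufa3, Ndufa9, Ndufb8, Ndufc1, Ndufs4, Ndufs6, Ndufs7, Atp5j2 and Atp5sl.

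The depth of the KSL libraries was estimated as 19935506 to 24145600 reads, and the whole-number columns of the granulocyte tables summed to 40394825 and 40414961. Labels were checked on marker genes. Kit, Ly6a and Cd34, markers of KSL cells, lay at 67.6, 1010 and 229 FPKM in the control KSL library and at 5.64, 2.17 and 0.938 FPKM in granulocytes. Granulocyte genes S100a8, S100a9 and Ly6g lay at 56391, 60707 and 505 FPKM in granulocytes and at 42.5, 36.6 and 0.677 FPKM in control KSL cells. The summed level of 10 B cell markers was 59.0 FPKM in the control library, 107 in LncHSC-1-KD cells and 61.9 in LncHSC-2-KD cells, and that of 10 monocyte and dendritic markers was 155, 261 and 163 FPKM. All 6 B cell markers with a mean of 5 FPKM or more were higher in LncHSC-1-KD cells than in control, by a median log2 ratio of 0.87, and so were 6 of 6 monocyte and dendritic markers, by 0.55. Cd74 and H2-Aa had the largest ratios of the latter list, with 73.7 and 27.4 FPKM in control and 142.6 and 51.3 in LncHSC-1-KD cells. Its markers under 5 FPKM, Csf1r, Adgre1, Itgax and Cx3cr1, had ratios of 0.03, 0.01, 0.02 and −0.09, so the list did not rise as a whole. Of 8 megakaryocyte markers, 7 were higher than control in each knockdown library, by a median of 0.29 in both. Of the defining B cell genes, Igll1 was listed at 0 in control and Pax5 was at 0.867 FPKM there and 2.49 in LncHSC-1-KD cells. The KSL gate selects lineage-negative cells, and whether these transcripts come from other cells or from KSL cells cannot be told apart here. Their part in the results below was not tested.

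In KSL cells the oxidative phosphorylation genes were among the most abundant transcripts. The median member lay at 113 FPKM in the control library, 110 in LncHSC-1-KD cells and 120 in LncHSC-2-KD cells. The members together held 2.88%, 2.87% and 2.90% of the summed FPKM of these libraries. Ranked among all features with at least 1 FPKM, the median member stood at percentile 94.9 in control, and 60 of 86 members were in the top 10%. A mean of at least 5 FPKM over the 3 libraries was reached by 78 members. The 8 others were Cox6a2, Cox7a1, Cox7b2, Cox8b, Cox8c, Ndufa4l2, Atp5g2 and Atp5l2, all of them paralogs of an expressed member.

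Levels differed by complex. In control KSL cells the median was 97.9 FPKM for complex I, 122 for complex II, 162 for complex III, 125 for complex IV and 208 for complex V. Among members with at least 5 FPKM it was 231 for complex IV, whose near-silent paralogs lower the first value, and 235 for complex V, and it was the same for complexes I to III. Among expressed members the spread was narrow in complex II, with an SD of 0.29 on the log2 scale, and wide in complexes IV and V, with 1.66 and 2.12. The lowest in complex V were Atp5s at 7.84 FPKM and Atp5sl at 9.58, included by name alone, and Atp5l at 11.2. In complex IV the lowest expressed members were Cox4i2 at 13.7 FPKM and Cox7c at 19.8. Much of the transcript sequence of Atp5l and Cox7c also occurs in other genes, so their levels are uncertain. The spread without these genes was not computed. In granulocytes the medians were 15.2, 34.1, 27.0, 27.2 and 43.9 FPKM for complexes I to V in that order, so complex I had the lowest median and complex V the highest in both cell types. The FPKM of the progenitor and granulocyte tables were scaled separately, and levels are set side by side without a ratio. Relative to long members, the KSL FPKM implied a median length of 0.752 of the granulocyte feature length for 40 members under 700 bases. The value was 0.956 for 37 longer ones, so the KSL levels of short genes are raised in comparison.

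**Figure D1:**
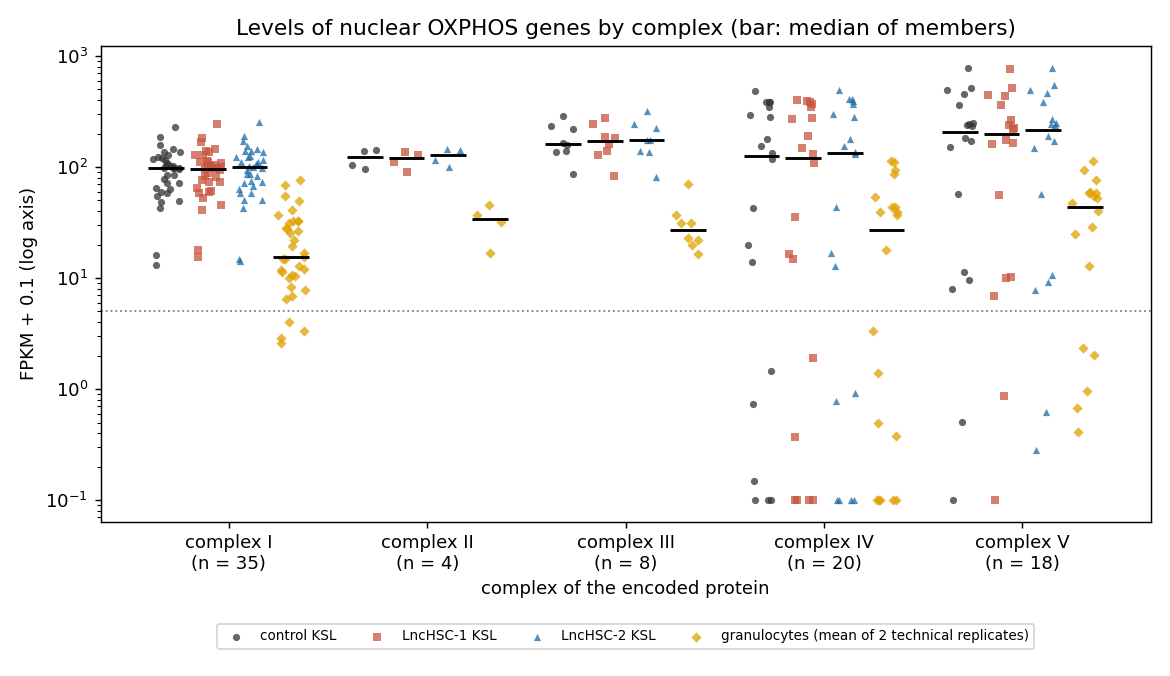
Level of each member in FPKM plus 0.1 (log axis) by complex, in the control, LncHSC-1 and LncHSC-2 KSL libraries and in granulocytes (mean of 2 technical replicates), with a bar at the median of the members. The 3 KSL libraries overlap in every complex, the granulocyte medians of 15.2 to 43.9 FPKM lie below the control KSL medians of 97.9 to 208 FPKM, and the dotted line marks 5 FPKM.

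Atp5b, which encodes the catalytic beta subunit of ATP synthase, had the highest level of all members in KSL cells, at 786 FPKM in control, 757 in LncHSC-1-KD cells and 783 in LncHSC-2-KD cells. Atp5a1, the alpha subunit, lay at 453, 437 and 462 FPKM in the same order. These 2 subunits form the catalytic head together. Atp5k, the small membrane subunit e, lay at 511, 516 and 549 FPKM. Atp5g3, which encodes the c subunit of the rotating ring, lay at 488, 449 and 496 FPKM. The LncHSC-1 library was the lowest of the 3 for Atp5b, Atp5a1 and Atp5g3 and not for Atp5k.

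The highest complex IV gene in control KSL cells was Ndufa4, whose product was first assigned to complex I and is now placed in cytochrome c oxidase. It lay at 481 FPKM in control, 403 in LncHSC-1-KD cells and 491 in LncHSC-2-KD cells. Cox4i1, Cox6b1 and Cox8a, the widely expressed forms of structural subunits, lay within a narrow band of 386 to 388 FPKM in control. Complex III ran from 85.7 FPKM for Uqcrfs1, the Rieske iron-sulfur protein, to 288 FPKM for Uqcrh, the hinge protein at the cytochrome c1 site. In complex I the highest was Ndufa3, a small membrane-arm subunit, at 229, 243 and 257 FPKM, and the lowest was Ndufa11, another membrane-arm subunit, at 13.1, 15.3 and 14.2 FPKM.

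Complex II, succinate dehydrogenase, has no mitochondrially encoded part and also serves the citric acid cycle. Sdha, the flavoprotein that oxidises succinate, lay at 143, 128 and 141 FPKM in the control, LncHSC-1 and LncHSC-2 libraries. Sdhb, the iron-sulfur subunit, lay at 104, 111 and 117 FPKM. The membrane anchors Sdhc and Sdhd lay at 96.0, 90.6 and 100.0 FPKM and at 139, 135 and 145 FPKM. In the granulocyte replicates Sdha was at 31.3 and 32.0 FPKM, Sdhb at 36.3 and 37.0, Sdhc at 16.6 and 16.8, and Sdhd at 43.7 and 46.9. Sdhc was the lowest of the 4 genes in both cell types, and Sdha, the highest in control KSL cells, lay below Sdhd and Sdhb in granulocytes.

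After LncHSC-1 knockdown the members as a group stood where all genes stood. The ratios are log2 ratios of FPKM + 1, which understate differences of low genes, and their intervals are exact 95% binomial intervals of the estimated reads, which cover counting error only. Over the 78 members at or above the 5 FPKM floor the median log2 ratio to control was −0.02, and over all 9153 features it was −0.02. Of the members 35 were higher and 43 lower, 44.9% higher against 43.8% of all features. By a log2 ratio of at least 0.32, 1 member was higher, where 3.7% of all features were, and 1 was lower, where 2.13% were. At 2-fold no member differed, and 1.06% of all features did. After centring each comparison on the median of all features the members' median was 0.0003, with 39 higher and 39 lower.

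The gene lower by more than 0.32 in LncHSC-1-KD cells was Ndufc2 (mm9 chr7:104548513-104556310), an accessory subunit of the membrane arm of complex I. It lay at 136 FPKM in control, 100.3 in LncHSC-1-KD cells and 135 in LncHSC-2-KD cells. The control and LncHSC-2 libraries were alike and LncHSC-1-KD cells were apart. Its log2 ratio was −0.43 against control, with a counting interval of −0.53 to −0.33, and −0.43 against LncHSC-2-KD cells. The gene higher by more than 0.32 was Ndufb2 (mm9 chr6:39542582-39549470), another membrane-arm accessory subunit, at 60.0, 77.0 and 71.5 FPKM. Here the control library was the low one of the 3. The log2 ratio to control was 0.35 (0.19 to 0.54) in LncHSC-1-KD cells and 0.25 (0.05 to 0.43) in LncHSC-2-KD cells. In Ndufb2, 24.4% of the 50-base windows of the transcript also occur in other genes, so its reads are less certain than those of Ndufc2.

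Below these, the lowest ratios to control in LncHSC-1-KD cells were those of Uqcrb, Cox7c, Cox6b2 and Ndufa4. Uqcrb, a small complex III subunit near the quinone site, lay at 219, 181 and 224 FPKM, a log2 ratio of −0.27 (−0.37 to −0.18). Ndufa4 had a ratio of −0.25 (−0.32 to −0.19), and Cox6b2 one of −0.26 (−0.47 to −0.06). In these 3 genes, as in Ndufc2, LncHSC-1-KD cells were lower than both others. Cox7c, a small complex IV subunit, had a ratio of −0.27 with an interval of −0.63 to 0.06, and rests on 144 estimated reads in control and 138 in LncHSC-1-KD cells, an interval that takes in 0. The next highest ratios after Ndufb2 were 0.21 (0.09 to 0.35) for Ndufa11, 0.16 (0.06 to 0.27) for Uqcrq, 0.14 (0.02 to 0.28) for Ndufs6 and 0.13 (−0.21 to 0.50) for Ndufb4. Uqcrq is a small complex III subunit, Ndufs6 a zinc-binding subunit of the matrix arm of complex I, and Ndufb4 a membrane-arm subunit.

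By complex, the median log2 ratio of LncHSC-1-KD cells to control was 0.02 for complex I, with 21 of 35 members higher, and −0.05 for both complex IV, with 4 of 14 higher, and complex V, with 5 of 16 higher. It was −0.06 for the 4 genes of complex II and −0.02 for the 8 genes of complex III. These signs held after centring, except that the complex III median was then under 0.005 in size. Summed over members, the estimated reads of complex I gave a log2 ratio of −0.00 (−0.02 to 0.01), those of complex IV −0.06 (−0.08 to −0.04) and those of complex V −0.05 (−0.07 to −0.04). These sums are weighted towards long and abundant genes and were not centred on all features, whose median was −0.02.

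After LncHSC-2 knockdown more members were higher than lower. The median log2 ratio to control was 0.03, and 0.00 over all features. Of the 78 members 57 were higher (73.1%) and 21 lower, against 52.1% of all features higher. With the authors' count columns as deposited, where the median feature of LncHSC-2-KD cells stood at −0.14 on the log2 scale, 11.5% of members and 10.6% of all features were higher, and with those columns centred on all features 70.5% of members were. Relative to all features the members' median was 0.03 on both scales. Other sets of short, abundant genes had the same direction: 76 of 86 cytoplasmic ribosomal protein genes were higher, with a median of 0.12, and 57 of 75 mitochondrial ribosomal protein genes, with 0.06. Among the members the median was 0.07 for the 40 whose transcript is under 700 bases and 0.02 for 37 longer ones. The part of gene length in the result was not tested. No member differed by 0.32 or more, where 2.29% of all features were higher and 1.64% lower by that much, and none by 2-fold, where 0.951% of all features did. All 5 complexes had a median above 0, from 0.03 for complexes IV and V to 0.06 for complex II, and below 0 with the count columns as deposited.

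The highest ratios of LncHSC-2-KD cells to control were all of complex I. After Ndufb2 came Ndufs6, at 97.9 FPKM in control, 108 in LncHSC-1-KD cells and 116 in LncHSC-2-KD cells, a log2 ratio of 0.24 (0.10 to 0.37). The membrane-arm subunits Ndufb10, Ndufa1 and Ndufb11 followed with 0.21 (0.10 to 0.31), 0.19 (0.05 to 0.31) and 0.17 (0.07 to 0.26). For Ndufa1 and Ndufb11 LncHSC-2-KD cells were above both others, and the control and LncHSC-1 libraries lay close together, at 109 and 110.2 FPKM for Ndufa1. The lowest ratios were −0.28 (−0.76 to 0.13) for Atp5l, −0.22 (−0.61 to 0.12) for Cox7c, −0.13 (−0.26 to −0.02) for Ndufb6, −0.11 (−0.43 to 0.18) for Cox4i2 and −0.11 (−0.52 to 0.27) for Ndufb4. Of these 5 genes only Ndufb6, a membrane-arm subunit of complex I, had an interval that left out 0.

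**Figure D2:**
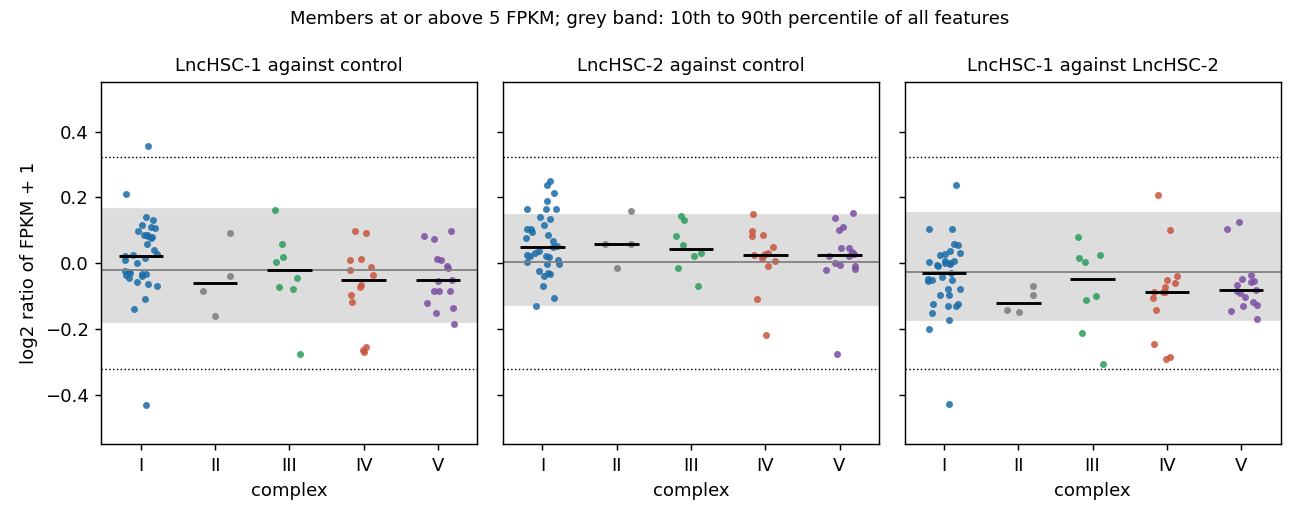
Log2 ratio of FPKM + 1 for the members at or above 5 FPKM, by complex, in the 3 comparisons between KSL libraries, without Cox4nb; short bars are medians of a complex, the grey line and band are the median and the 10th to 90th percentiles of all 9153 features, and dotted lines mark a ratio of 0.32 either way. Ndufc2 is the low point at −0.43 in both panels that hold LncHSC-1-KD cells, Ndufb2 the high point at 0.35 against control, and most points of the panel of LncHSC-2-KD cells against control lie above 0. With the count columns as deposited most members, like 89.3% of all features, lay below 0 there.

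The comparisons with control share 1 library, so the LncHSC-1 and LncHSC-2 libraries were also set against each other. The median log2 ratio of LncHSC-1 to LncHSC-2 was −0.06 over the members and −0.03 over all features. It was higher for 21 members and lower for 57, against 40.4% of all features higher. With the count columns as deposited 85.9% of members and 85.1% of all features were higher, and after centring 32.1% of members were. In the same comparison the cytoplasmic ribosomal protein genes had 6 higher and 80 lower, with a median of −0.15, and the mitochondrial ribosomal protein genes 24 and 51, with −0.05. Only Ndufc2 was lower by 0.32 or more, where 2.52% of all features were, no member was higher by that much, where 3.3% were, and none differed by 2-fold, where 1.15% did. After Ndufc2 the lowest were Uqcrb with −0.30 (−0.39 to −0.20), Cox6b2 with −0.29 (−0.50 to −0.08), Ndufa4 with −0.28 (−0.34 to −0.21) and Cox7a2l with −0.25 (−0.32 to −0.17). Cox7a2l, known for a role in joining complexes III and IV and for a shortened protein in C57BL/6 mice, lay at 117 FPKM in control, 109 in LncHSC-1-KD cells and 129.9 in LncHSC-2-KD cells. The highest were 0.24 for Ndufb4, 0.21 for Cox4i2, 0.12 for Atp5l, 0.11 for Ndufb2 and 0.10 for Ndufa11, each with an interval that reached below 0. Atp5d and Cox5b followed closely with 0.10 each, and their intervals of 0.04 to 0.18 and 0.02 to 0.20 lay above 0.

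Complexes II, IV and V were lower in LncHSC-1-KD than in LncHSC-2-KD cells in 4 of 4, 12 of 14 and 14 of 16 members, with medians of −0.12, −0.09 and −0.08. The same counts were found after centring, with medians of −0.09, −0.06 and −0.06. With the count columns as deposited, which placed 85.1% of all features higher in LncHSC-1-KD cells, 3 of 4, 11 of 14 and 15 of 16 of these members were higher, and with those columns centred the counts were again 4 of 4, 12 of 14 and 14 of 16 lower. Complex I had 13 members higher and 22 lower, a median of −0.03, and 17 higher and 18 lower after centring. Its summed reads gave a log2 ratio of −0.06 (−0.07 to −0.04). Over the summed reads of all members the log2 ratio was −0.07 (−0.08 to −0.07). Both sums were scaled as the FPKM and not centred, and the median of all features was −0.03 on that scale. With the count columns as deposited the medians were 0.12 over all features and 0.09 over the members. The intervals therefore do not cover the choice of scaling. No library repeats another, so how far 2 libraries of one group would differ is not known.

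The order of the members was almost the same in the 3 KSL libraries. Across the 78 members at the floor, which share these libraries, Spearman's rho of the FPKM was 0.993 between control and LncHSC-1 and 0.995 between control and LncHSC-2. Between control KSL cells and granulocytes it was 0.856. Gene length, gene sequence and the authors' counting are shared by all of these points.

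In granulocytes the members were a smaller part of the RNA. The median member lay at 23.9 FPKM, 67 members reached 5 FPKM, and together they held 0.580% of the library's summed FPKM. KSL shares rest on FPKM with shorter lengths for short genes, and the part of this in the difference was not tested. The 11 granulocyte markers alone held 34.8% of it, against 0.0283% in control KSL cells, and of the remainder the members held 0.890%. Their median rank was percentile 79.0 among features with at least 1 FPKM, and 17 members were in the top 10%. In bulk samples such as these, fewer cells that express a gene and less RNA per cell cannot be told apart. The technical replicates differed by an SD of 0.07 in log2 over the 67 members at 5 FPKM or more and by at most 0.20, in Ndufc1.

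The other large sets of short, abundant genes had lower standing in granulocytes too. Cytoplasmic ribosomal protein genes, 97 by symbol, held 12.0% of the summed FPKM in control KSL cells and 0.987% in granulocytes, and their median percentile was 98.5 and 76.7. Mitochondrial ribosomal protein genes, 76 by symbol, held 0.823% and 0.140%, with percentiles of 80.3 and 32.2. The oxidative phosphorylation genes, at 94.9 and 79.0, thus ranked below the cytoplasmic ribosomal genes in KSL cells and above them in granulocytes, and no test of this order was possible.

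The 8 highest members in granulocytes were Cox8a, Atp5b, Cox4i1, Cox6b1, Atp5e, Cox6a1, Ndufa3 and Atp5f1. Cox8a lay at 109.6 and 117 FPKM in the 2 replicates, Atp5b at 113 and 112, and Cox4i1 at 108.6 and 112. These 3 genes, with Cox6b1 at 93.0 and 93.5 FPKM, were also among the 8 highest in control KSL cells. The 4 that were not are Atp5e, the epsilon subunit of the ATP synthase stalk, Cox6a1, Ndufa3 and Atp5f1, the b subunit of its stator. Atp5f1 lay at 76.4 and 76.0 FPKM in granulocytes and at 173, 163 and 173 FPKM in the KSL libraries. Atp5k, the second highest in control KSL cells, lay at 54.9 and 60.6 FPKM in granulocytes, and Ndufa4 at 38.1 and 40.5.

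Against its own table's ranking, 78 of 86 members stood lower in granulocytes than in control KSL cells and 1, Atp5l, stood higher, while the others were under 1 FPKM in both. Of all 13472 symbols in both tables with at least 1 FPKM in either, 64.9% stood lower, and of the 1229 in the top 10% of the control library 88.1% did. All 60 members in that top 10% stood lower, with a median difference of −11.8 percentile points against −17.1 over the 1229. The largest rank differences were those of Cox6b2 from percentile 82.7 to 6.04, of Atp5g1 from 87.6 to 19.4, of Ndufa12 from 93.7 to 28.3 and of Ndufa5 from 91.8 to 33.3. Ndufa12 and Ndufa5 belong to the matrix arm of complex I. Ndufa12 lay at 96.4, 94.8 and 98.1 FPKM in the KSL libraries and at 3.12 and 3.34 in granulocytes. Ndufa5 lay at 78.0, 82.7 and 85.7 FPKM and at 3.82 and 4.01. The smallest differences among members that stood lower were those of Cox8a, from 99.1 to 96.3, Cox4i1, from 99.1 to 96.2, and Atp5b, from 99.6 to 96.3. When the reads of the control library were divided by the length of the granulocyte table's feature, 76 members stood lower and the same 4 genes led, Cox6b2 with a difference of −68.2 percentile points.

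**Figure D3:**
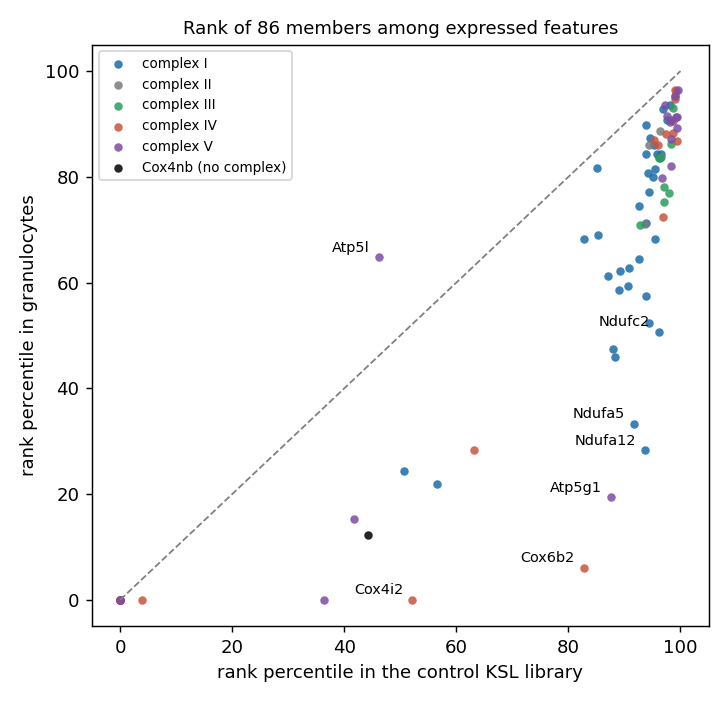
Rank percentile of each of the 86 members among features with at least 1 FPKM in the control KSL library (horizontal) and in granulocytes (vertical), coloured by complex, with equality as a dashed line; features under 1 FPKM are drawn at 0. Most members lie below the line, Cox6b2 lies farthest from it, at 82.7 and 6.04, and Atp5l is the only one above it, at 46.2 and 64.8.

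Several of these ranks belong to genes whose transcript sequence is not unique. Each member's transcript in GENCODE M21 was cut into 50-base windows and compared with the transcripts of all other genes, and 85 of 86 members had a transcript. No window was shared in 49 members, and in 4 at least 50% were: Atp5l with 68.5%, Atp5g1 with 56.2%, Ndufa12 with 53.8% and Atp5h with 50.5%. Atp5l, the g subunit of ATP synthase, shared windows with 13 other genes, 12 of them pseudogenes. No source used here says how the authors assigned reads that match several genes, and levels of such genes are uncertain. Atp5l lay at 11.2, 10.0 and 9.10 FPKM in the KSL libraries and at 12.7 and 13.0 in granulocytes, whereas Atp5j2, the f subunit of the same complex in which 3.25% of windows were shared, lay at 245 FPKM in control and 54.5 and 53.9 in granulocytes. Atp5g1 and Ndufa12, with 3 genes and 1 gene sharing their windows, are among the 4 largest rank differences. Cox7c shared 48.2%, Uqcrb 43.2%, Ndufb4 37.0% and Ndufb2 24.4%, and these genes appear above among the extreme ratios. Without the 4 members at or above 50% the medians of all 3 comparisons between KSL libraries kept their sign.

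**Figure D4:**
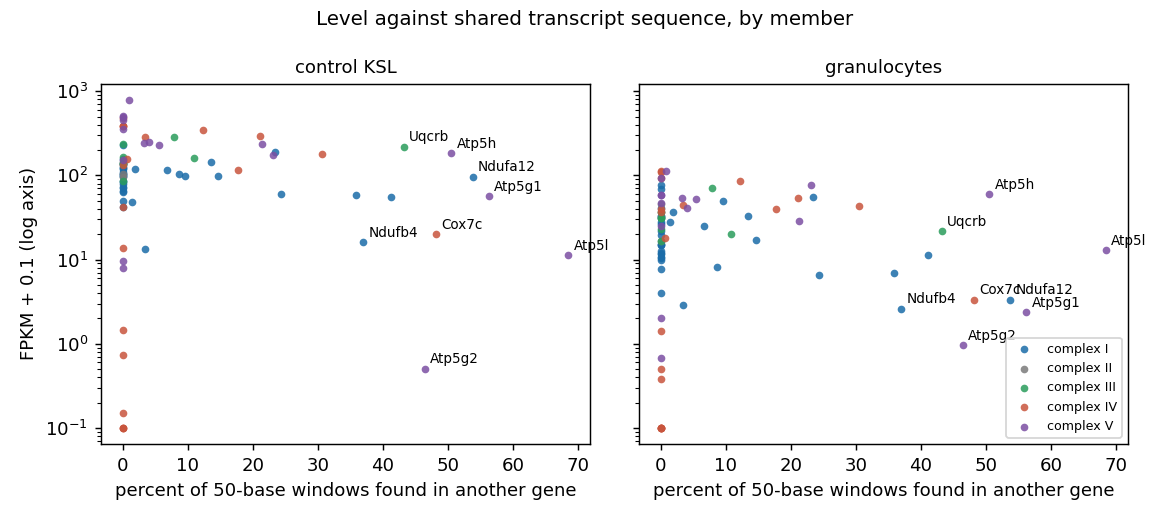
Level of each member in FPKM plus 0.1 (log axis) against the percent of its 50-base transcript windows that also occur in another gene, in control KSL cells (left) and granulocytes (right), coloured by complex. Atp5l at 68.5% shared and Atp5g1 at 56.2% lie far to the right, and Cox6b2 and Ndufa5, with large rank differences, lie at 0%.

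Paralogs, grouped by name, held similar proportions in the 3 KSL libraries and partly different ones in granulocytes. Cytochrome oxidase subunit 6B is made by Cox6b1 in most tissues and by Cox6b2 chiefly in the testis. Cox6b2 (mm9 chr7:4703396-4704696) lay at 42.4, 35.2 and 43.2 FPKM in the control, LncHSC-1 and LncHSC-2 libraries, which is 9.89%, 8.69% and 9.91% of the pair. In the granulocyte replicates it lay at 1.43 and 1.17 FPKM, a share of 1.37%. Cox4i2, the oxygen-responsive form of subunit 4 known from lung, lay at 13.7, 14.8 and 12.7 FPKM in the KSL libraries, a share of 3.42%, 3.72% and 2.99%, and it was listed at 0 in both granulocyte replicates. The KSL share of both minor forms was thus similar in the 3 libraries, and the granulocyte share was lower.

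The c subunit of ATP synthase is encoded by 3 genes with different targeting sequences and the same mature protein. Atp5g3 held 89.6% of their summed FPKM in control and 93.8% in granulocytes, and Atp5g1 held 10.4% and 4.46%. Atp5g1 lay at 56.5, 55.9 and 57.4 FPKM in the KSL libraries and at 2.25 in each granulocyte replicate. Atp5g2 lay at 0.406, 0.767 and 0.519 FPKM and at 0.561 and 1.15. As 56.2% of the windows of Atp5g1 and 46.4% of those of Atp5g2 occur in other genes, these shares carry that uncertainty.

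In the Cox7a group Cox7a2, the general form, and Cox7a2l held nearly equal parts, with 52.8% and 46.7% in control and 48.1% and 51.6% in granulocytes. The order of the 2 genes therefore differed between the cell types by a few percent. Cox7a2l is in this group by name alone, so these are not shares of 1 subunit. Cox7a1, the form of heart and skeletal muscle, lay at 1.35, 1.82 and 0.827 FPKM in KSL cells and at 0.276 in granulocytes. Cox6a2, the muscle form of subunit 6A, lay between 0.272 and 0.675 FPKM in KSL cells. Cox7b2, Cox8b and Cox8c, forms of testis and muscle, were listed at 0 in all 5 libraries, and Ndufa4l2, known for its induction in low oxygen, was at 0.0493 FPKM in control and 0 elsewhere. Atp5l2, a paralog of the g subunit, was listed at 0 in control and LncHSC-1 and at 0.184 FPKM in LncHSC-2.

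**Figure D5:**
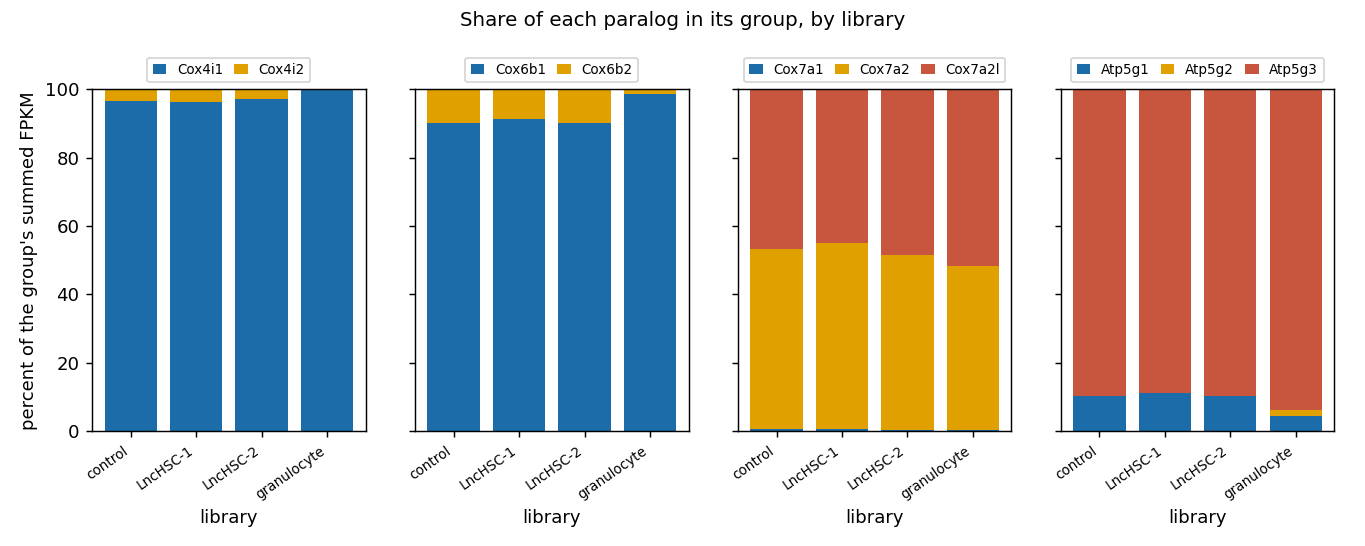
Share of each paralog in the summed FPKM of its group (percent) in the control, LncHSC-1 and LncHSC-2 KSL libraries and in granulocytes, for the Cox4i, Cox6b, Cox7a and Atp5g groups. Cox6b2 holds 8.69% to 9.91% in KSL cells and 1.37% in granulocytes, and Cox7a2 and Cox7a2l share their group nearly evenly.

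Genes that work with the members but are outside the naming rule were followed in lists chosen by role. Of 32 assembly factors at the floor, 16 were higher and 16 lower than control in each knockdown library, where 43.8% and 52.1% of all features were higher, with medians of 0.00 and −0.01. The most abundant was Cox17, the copper chaperone of cytochrome oxidase, at 114, 121 and 116 FPKM. The largest ratios in LncHSC-1-KD cells were 0.42 for Sdhaf1, an assembly factor of complex II, at 15.5, 21.01 and 18.5 FPKM, and −0.40 for Cox11, another copper chaperone, at 8.56, 6.26 and 7.29 FPKM. Assembly factors had a median of 16.3 FPKM in control KSL cells, against 113 FPKM for the members, and of 1.95 FPKM in granulocytes.

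All 18 citric acid cycle and pyruvate dehydrogenase genes were lower in LncHSC-1-KD cells than in control, where 56.1% of all features were lower. Their median log2 ratio was −0.09, and after centring 16 of 18 were lower with a median of −0.07. The lowest were −0.20 for Dlat and −0.19 for Pdha1, subunits of pyruvate dehydrogenase, and the highest of the list by level was Mdh2, malate dehydrogenase, at 250.7, 249.7 and 259 FPKM. In LncHSC-2-KD cells 13 of 18 were lower than control, against 47.9% of all features, with a median of −0.03. After centring 14 of 18 were lower, with −0.04. With the count columns as deposited 18 of 18 were lower, as were 89.3% of all features. The ADP/ATP and phosphate carriers, which supply complex V, were in a list of 14 carriers and channels with medians of −0.06 and 0.00. Slc25a5, an ADP/ATP carrier, was the highest at 655, 618 and 670.0 FPKM.

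Electron carriers and subunits whose names the rule does not match gave 11 genes at the floor, with medians of −0.03 in LncHSC-1-KD and 0.02 in LncHSC-2-KD cells. Among them Atpif1, the inhibitor of ATP synthase, lay at 423, 408 and 441 FPKM. Ndufab1, the acyl carrier subunit of complex I, had the highest ratios, 0.28 and 0.37, at 8.84, 10.97 and 11.7 FPKM. Of the regulators of mitochondrial gene expression, 15 at the floor had medians of 0.00 and −0.01. Of these, 8 and 6 were higher than control, where 43.8% and 52.1% of all features were. Yy1 was the highest at 45.0, 41.5 and 43.6 FPKM, and Tfb1m, a mitochondrial ribosomal RNA methyltransferase, had the largest difference with −0.22 in LncHSC-1-KD cells. Ppargc1a, the coactivator known for driving this gene set in muscle and fat, was at 0.0250 FPKM in control.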

How the data were processed

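Polyadenylated RNA was sequenced in 3 KSL libraries, 1 per group, and in 2 technical replicates of 1 granulocyte sample. The deposited tables give FPKM per feature, computed by the authors. The count column of the KSL tables is a signal in which the authors multiplied reads by 1 factor per library, and that of the granulocyte tables is a score in the same sense that the authors rounded to whole numbers, as the values show. In the granulocyte tables FPKM equals this score per kilobase and a fixed divisor. Build mm9 and DESeq stand in the submitters' processing notes without a role. No source used here gives the aligner, the counter or the treatment of reads that match several genes.

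Reads of the KSL libraries were estimated by dividing the count column by the value of 1 read. Of the values of up to 20 reads, 91.7% to 92.1% came out within 0.1 of a whole read. Since the other values did not, no count model was run. Ratios are log2 of FPKM with a pseudocount of 1, for features with a mean of at least 5 FPKM over the KSL libraries, and the scripts were tested on simulated data. Percentiles are ranks among features with at least 1 FPKM, and the 2 granulocyte replicates were averaged. With 1 sample per group there was no test, and whether library preparation differed between groups is not given. Intervals are exact (Clopper-Pearson) binomial intervals at 95% and cover counting error only.

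The members and the gene lists were chosen with earlier results of these data known. Named members are the 8 highest in control KSL cells and in granulocytes, the 5 highest and 5 lowest ratios of each comparison, all paralogs, members under the floor, Sdha to Sdhd and the 4 largest rank differences each way. Other lists give up to 4 genes with the largest ratios and their highest gene. Uqcrh, Uqcrfs1, Atp5j2, Atp5h, Atp5d, Cox5b, GU332589, DQ539915, Ppargc1a, Pax5, Igll1 and the genes with a printed motif were named outside this rule, from their values. Csf1r, Adgre1, Itgax, Cx3cr1, Cytb, Cox2 and Atpase6.1 were also named outside it, to complete a list or by their symbols. Gene positions are mm9 as in the deposited granulocyte table, promoters are RefSeq on GRCm38.p6, and transcripts are GENCODE M21; no coordinates were converted. Protein sequences were not used here. Alternatives changed the pseudocount, the floor, the scaling, the members counted, the ranking and the granulocyte replicate. Python 3.11.15, numpy 2.4.6, pandas 2.3.3, scipy 1.17.1 and matplotlib 3.10.9 were used.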

Additional observations from a re-analysis of the deposited data

How the results depend on the processing

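Of the recomputed values, 114 moved by less than the tolerance set for them and 19 by more or in sign. Among the 114, the share of members higher in LncHSC-1-KD cells than in control went from 44.9% to 51.3% with centred count columns and to 50% with centred FPKM. The median ratio of LncHSC-1 to control turned from −0.02 to 0.0005709 with centred count columns and to 0.0002681 with centred FPKM. The count columns as deposited placed 89.3% of all features lower in LncHSC-2 than in control and 85.1% higher in LncHSC-1 than in LncHSC-2. With them the median of LncHSC-2 to control was −0.1161, with 2 members lower by a log2 ratio of 0.32 or more and 11.5% higher. The median of LncHSC-1 to LncHSC-2 was 0.09007, with 2 members higher and 0 lower by that much and 85.9% higher. The latter median was −0.02771 with centred count columns, −0.03651 with centred FPKM and −0.07515 with a floor of 20 FPKM. A floor of 1 FPKM gave 1 member lower by 0.32 or more in LncHSC-2 against control and 1 higher in LncHSC-1 against LncHSC-2. The median percentile was 65.1 in granulocytes and 93.1 in control among features with at least 5 FPKM, and 80.8 and 94.5 with plain feature lengths. Without granulocyte replicate 1 or 2 it was 78.9 or 79.0. Plain lengths, and leaving out members with 50% or more of their windows shared, were chosen after seeing the data. Leaving out merged features gave no value since 0 members lie in one, and shares per length could not be computed for the Cox4i and Ndufa4 groups. No paired analysis was possible because each KSL group is 1 library. Differences of a size that counting error covers, as in Cox7c, Atp5l and Ndufb4, were not detectable at this depth.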

Other observations

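Mitochondrial transcripts were represented by 12 features of the mitochondrial chromosome, picked by chromosome after the files were seen. Of 13 mitochondrially encoded subunits only 1, mt-Nd4, was found under its mt- symbol, and several features have names that do not give a gene. Cytb, Cox2 and Atpase6.1 carry symbols of such subunits without mt-. Cytb lay at 749, 827 and 711 FPKM in the control, LncHSC-1 and LncHSC-2 libraries and at 157 in granulocytes. Cox2 and Atpase6.1 were under 1 FPKM in every KSL library. The summed level of the 12 features was 5245 FPKM in control KSL cells, 5784 in the LncHSC-1 library, 5118 in the LncHSC-2 library and 1717 in granulocytes. DQ539915 alone lay at 2480 FPKM in control, so this sum is not a level of the mitochondrial subunits. The summed FPKM of the nuclear members was 2.41, 2.14, 2.57 and 1.499 times that sum in the same order, so the LncHSC-1 library had the lowest value of the KSL libraries. The granulocyte value was lower still, but granulocyte and KSL FPKM treat the length of short genes differently. The part of this in the difference was not tested. Of the 9 features at the floor, 6 were higher in LncHSC-1 than in control, with a median log2 ratio of 0.10, and 3 were higher in LncHSC-2, with a median of −0.06. Of all features 43.8% and 52.1% were higher in these comparisons. GU332589 went the other way in LncHSC-1-KD cells, at 31.0 FPKM in control, 21.2 in LncHSC-1-KD and 29.8 in LncHSC-2-KD cells, a log2 ratio of −0.53, and lay at 290.0 FPKM in granulocytes. mt-Nd4, which encodes a proton-pumping subunit of complex I, lay at 302, 347 and 286 FPKM in the KSL libraries and at 78.9 FPKM in granulocytes. Transcripts of this chromosome are captured by their polyA tails as nuclear ones are, and whether capture differed between libraries was not tested.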
